A study of Mus musculus with 2 samples.

Results

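The brightest 1630 of 6520 reporter-positive (Tom+) mouse hepatocytes were compared with the dimmest 1630 cells of the same library. Brightness here was the RNA of the reporter and not its fluorescence. For each cell it was the number of tdTomato unique molecular identifiers (UMIs, each standing for 1 captured probe molecule) divided by all UMIs of that cell, and the quartiles were chosen by this value. The series held 39559 cell barcodes in 2 libraries, Tom+ and Tom-. A Tom+ cell was taken as a hepatocyte at 20000 to 60000 UMIs, 2000 to 10000 detected genes, a mitochondrial share of at most 5%, and at most 2 UMIs in the sum of Ptprc, Pecam1 and Dcn, which mark leukocytes, endothelial cells and fibroblasts.

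Both libraries came from livers of male p16-Tom mice on a C57BL/6 background that had received CCl4 for 4 weeks, together with tamoxifen. The mice were heterozygous and carried p16-CreERT2, which places a tamoxifen-dependent Cre under the p16Ink4a gene, and R26-CAG-LSL-tdTomato-WPRE, in which Cre removes a stop in front of tdTomato at the Rosa26 locus. Fixed and dissociated cells stained by Hoechst and by MitoBrilliant 646 were sorted as Tom+ (p16high) or Tom- (p16low), with 1 library for each. The number of mice behind a library is not given in the sources used here, and no vehicle-treated library was analysed here. All values therefore describe the cells of single libraries. No difference between quartiles was tested, and the intervals given cover counting error only.

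Once the stop has been removed, the CAG promoter drives tdTomato, so the amount of reporter RNA in a recombined cell is set by another promoter than that of p16Ink4a. Hepatocytes differ along the line from the portal vessels to the central vein of each lobule. Periportal cells make urea and glucose and break down amino acids, whereas pericentral cells, held in that state by Wnt signals from the central vein, make glutamine and bile acids and carry the cytochrome P450 enzymes, such as Cyp2e1, that turn CCl4 into its toxic product.

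In the Tom+ library, with 16339 barcodes and 715333889 UMIs in total, 7849 barcodes lay in the UMI range, of which 23 were lost to the mitochondrial limit and 1306 to the markers of other cells. The Tom- library had 23220 barcodes and 681279005 UMIs, and 8444 of its cells passed the same filters. The 2 libraries shared 503 barcode sequences, 208 of them among the Tom+ hepatocytes, and leaving those cells out gave 419 higher and 261 lower genes against the 417 and 259 reported below. Hepatocyte RNA was present throughout, with Alb, which encodes serum albumin, at 113531 CPM (counts per 1000000, the UMIs of a gene per 1000000 UMIs summed over the cells of a quartile) in the dim quartile and 101673 CPM in the bright quartile.

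tdTomato spread widely among the Tom+ hepatocytes. Over the 4 quartiles, from dim to bright, it stood at 350.5, 686.0, 1016 and 1674 CPM, with a median of 13, 25, 35 and 52 UMIs per cell. The last cell inside the bright quartile had 1226.66 tdTomato UMIs per 1000000 UMIs and the first outside it 1226.33, while the dim quartile ended at 534.01 and the next cell had 534.63, so that both limits lay inside one continuous distribution. These values chose the cells and are given as a description. The variance of tdTomato UMIs per cell was 12.1 times their mean, and counting alone accounted for 9.57% of the variance of the share. Only 2 Tom+ hepatocytes, both in the dim quartile, had no tdTomato UMI.

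**Figure D1:**
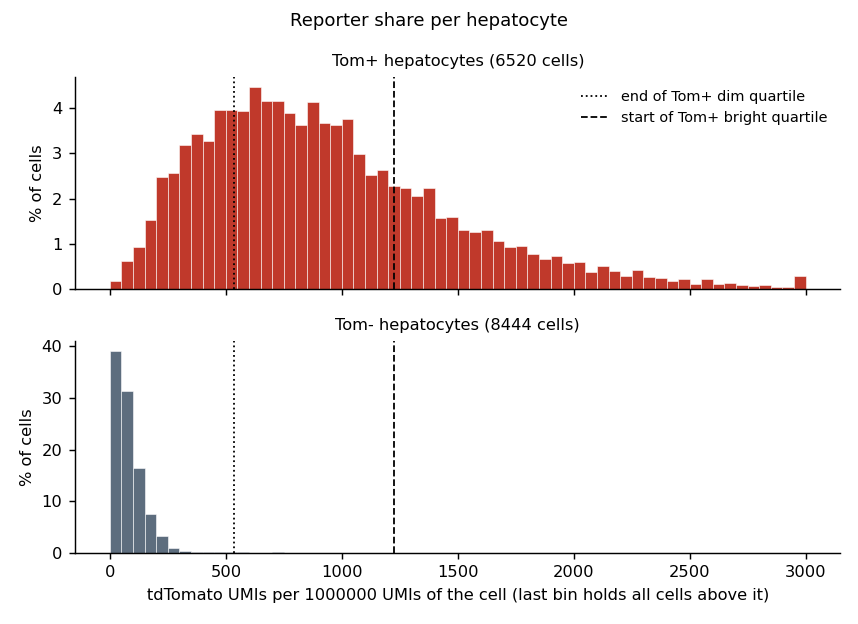
Distribution of tdTomato UMIs per 1000000 UMIs of the cell (x axis) as the percentage of cells in bins (y axis, with its own scale in each panel), for Tom+ hepatocytes above and Tom- hepatocytes below. The Tom+ cells form a single broad distribution cut at 534.01 and 1226.66, and most Tom- cells lie in the lowest bins.

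The Tom- hepatocytes gave the level of the same probes in cells sorted as reporter-negative. Their quartiles stood at 14.18, 49.82, 87.42 and 185.1 CPM, 994 of the 8444 cells had no tdTomato UMI, and the 95th percentile of their share was 207.9 per 1000000 UMIs. At or below that percentile lay 239 Tom+ hepatocytes (3.67%), all of them in the dim quartile, where they made up 14.7%. In the opposite direction, 45 Tom- hepatocytes (0.533%) lay above the end of the Tom+ dim quartile and 10 reached the bright quartile. The dim quartile thus held some cells at or below the Tom- 95th percentile. That all such cells were dim and none bright follows from the ranking. The quartiles were cut by the same share, and that percentile lay below the end of the dim quartile. The positions in the reporter cassette that the probes bind were not checked.

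Bright cells were also shallower. The median total fell over the quartiles from 38360 to 36537, 34048 and 31326 UMIs, the bright value being 81.7% of the dim value, and the median number of detected genes went from 6056 to 5606. The mitochondrial share was 1.496% in the dim and 1.684% in the bright quartile. The total is the denominator of the value that ranked the cells, so the counts of genes and the marker sums are also given below for quartiles cut within bins of equal depth.

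Bright hepatocytes carried more pericentral and less periportal RNA than dim ones. Across the genome, 7908 genes had at least 10 CPM in either quartile and 20 UMIs in both together. With a log2 ratio of 0.3 as the limit, which the study used in its single-cell comparisons, 417 of them (5.27%) were higher and 259 (3.28%) lower in the bright quartile. The median log2 ratio of all 7908 was 0.0018. A gene that passed the minimum through 1 quartile alone had to be higher there, and this held for 45 of the 417, Aldh1l2, Adamtsl4, Anxa2 and Fos among them, and for 30 of the 259, Chrna4, Cyp2c38, Orm3 and Stab2 among them. Most of these genes were graded, since 393 of the 417 were higher at each step from dim to bright and 235 of the 259 were lower at each step. The genes were chosen by the end quartiles of this same course, and the share of all genes with such a course is not given here. A 2-fold limit left 12 higher genes (0.152%) and 4 lower ones (0.0506%).

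Of 24 pericentral markers, 21 passed the level filter, and 17 of these were higher in the bright quartile and 0 lower, against the 5.27% of all genes that were higher. Their median log2 ratio was 0.70. Their summed level was 6673 CPM in the dim quartile, then 7707, 8632 and 10223 CPM in the bright quartile, a log2 ratio of 0.62 (0.61 to 0.62, exact 95% interval). Slc1a2 and Glul had the highest ratios of the list, and 3 Cyp2c genes and Aldh1a1 did not reach the limit.

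Glul (chr1:153899944-153909723, GRCm38), which encodes glutamine synthetase and marks the innermost layer of cells around the central vein, stood at 81.93, 101.1, 146.0 and 206.3 CPM from dim to bright. Its log2 ratio was 1.33 (1.28 to 1.38). Slc1a2 (chr2:102658659-102790784), a glutamate transporter of the same layer, stood at 55.50, 80.43, 108.4 and 146.0 CPM, which gave a log2 ratio of 1.40 (1.34 to 1.45). Each quartile lay above the one before it for both genes.

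Genes known to be driven by Wnt signals were among the higher ones. Lgr5, a receptor for R-spondins, went from 15.19 to 32.60 CPM, a log2 ratio of 1.10. Axin2, a feedback inhibitor of the Wnt pathway, went from 56.67 to 107.8 CPM (0.93), and Tbx3, a transcription factor, from 58.33 to 91.75 CPM (0.65). Rhbg, an ammonium transporter, and Oat, ornithine aminotransferase, had log2 ratios of 1.13 and 1.11. Slc13a3, a dicarboxylate carrier, had one of 1.19.

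Enzymes of the wider pericentral zone were higher as well, apart from 3 Cyp2c genes and Aldh1a1. Cyp2e1 (chr7:140763739-140774987) stood at 1746, 2001, 2187 and 2655 CPM, which gave a log2 ratio of 0.60 (0.59 to 0.62). Cyp1a2, another cytochrome P450, went from 414.9 to 648.5 CPM (0.64) and Gulo, the last enzyme of vitamin C synthesis, from 440.4 to 729.4 CPM (0.73). Cyp7a1, the rate-limiting enzyme of bile acid synthesis, went from 384.0 to 719.6 CPM (0.91). In contrast, Cyp2c50 was at 145.5 and 145.0 CPM (log2 ratio -0.0042), Cyp2c54 at 388.5 and 435.7 CPM (0.17), Cyp2c37 at 61.05 and 72.61 CPM (0.25) and Aldh1a1 at 402.1 and 451.8 CPM (0.17). Cyp2c genes are close copies of each other, and probes may be shared between them.

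The periportal list showed the opposite. All 21 markers passed the level filter, and 18 were lower and 0 higher in the bright quartile, against 3.28% lower among all genes, with a median log2 ratio of -0.52. Their sum went from 18846 to 17036, 15872 and 13721 CPM, a log2 ratio of -0.46 (-0.46 to -0.45). Sds (chr5:120476526-120483932), serine dehydratase, stood at 1068, 913.2, 799.4 and 601.1 CPM, a log2 ratio of -0.83. Hal (chr10:93488768-93519304), histidine ammonia-lyase, stood at 416.3, 359.9, 320.3 and 237.7 CPM (-0.81).

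Urea cycle enzymes were among the lower periportal genes. Ass1 (chr2:31470207-31520672), argininosuccinate synthase, went from 3477 to 2147 CPM (-0.70), Asl, argininosuccinate lyase, from 811.9 to 567.7 CPM (-0.52), Cps1, carbamoyl phosphate synthetase, from 1793 to 1389 CPM (-0.37) and Arg1, arginase, from 1184 to 907.6 CPM (-0.38). Gls2, the liver glutaminase, went from 177.8 to 115.8 CPM (-0.62) and Pck1, a key enzyme of glucose production, from 5050 to 3833 CPM (-0.40). The 3 members that missed the limit were Pigr at 786.2 and 656.3 CPM (-0.26), Fbp1 at 1027 and 841.8 CPM (-0.29) and Igf1 at 653.9 and 697.9 CPM (0.094), the only one with a positive ratio. Of the 4 mid-lobular markers, 3 passed the level filter and none reached the limit. Hamp, which encodes the iron hormone hepcidin, was at 110.4 and 94.91 CPM (-0.22), Igfbp2 at 388.4 and 424.8 CPM (0.13) and Cyp8b1 at 59.12 and 50.10 CPM (-0.24).

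**Figure D2:**
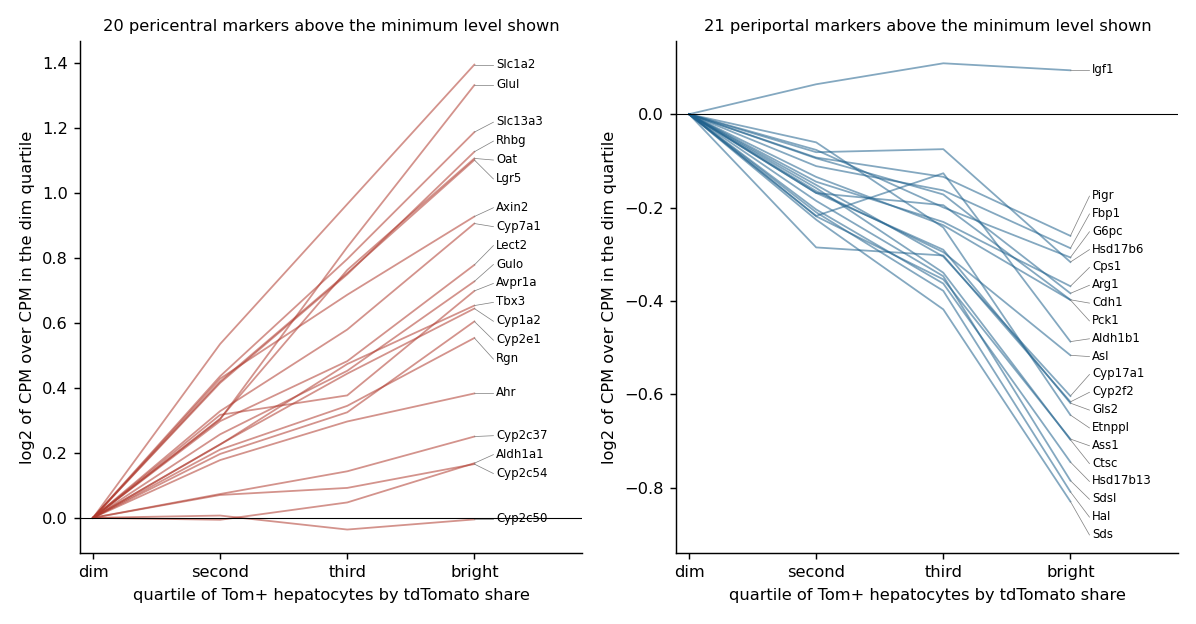
Level of pericentral (left, all but 1) and periportal (right, all) markers above the minimum level in the 4 quartiles of Tom+ hepatocytes by tdTomato share (x axis), as the log2 of its CPM over its CPM in the dim quartile (y axis, a different scale in each panel). Slc1a2 and Glul end highest at 1.40 and 1.33, Sds and Hal end lowest at -0.83 and -0.81, and Igf1 is the only periportal marker above 0 in the bright quartile.

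Position was then read per cell, with an index formed from the mean standardised pericentral minus the mean standardised periportal level. Its median was -0.34, 0.02, 0.28 and 0.72 from the dim to the bright quartile, and the ranges overlapped widely, the 25th to 75th percentiles being -1.62 to 0.63 in dim and -0.29 to 1.49 in bright cells. Bright cells were found at every position. Over deciles of the Tom+ hepatocytes from the portal to the central end, tdTomato stood at 841.3, 798.0, 717.0, 744.0, 847.8, 902.6, 960.0, 1014, 1078 and 1152 CPM. The lowest level was thus in the third decile and not at the portal end itself. The share of cells in the bright quartile had the same course. It was 21.0% (17.9 to 24.3, exact 95% interval) in the first decile, 11.8% (9.43 to 14.5) in the third and 40.6% (36.8 to 44.5) in the decile nearest the central vein. The share of dim cells ran the other way, from 37.9% in the third decile to 13.5% in the last.

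The Tom- library had a central rise of its own, at a level about an order of magnitude below. Its tdTomato stayed between 67.23 and 76.16 CPM over the first 8 deciles and stood at 95.60 and 127.4 CPM in the last 2. In the Tom+ cells of the last 2 deciles, Glul was at 253.9 and 753.1 CPM. Whether the Tom+ gradient and the Tom- gradient have a common source was not tested. The median total of UMIs was 36878 in the first and 33253 in the last decile of Tom+ cells.

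**Figure D3:**
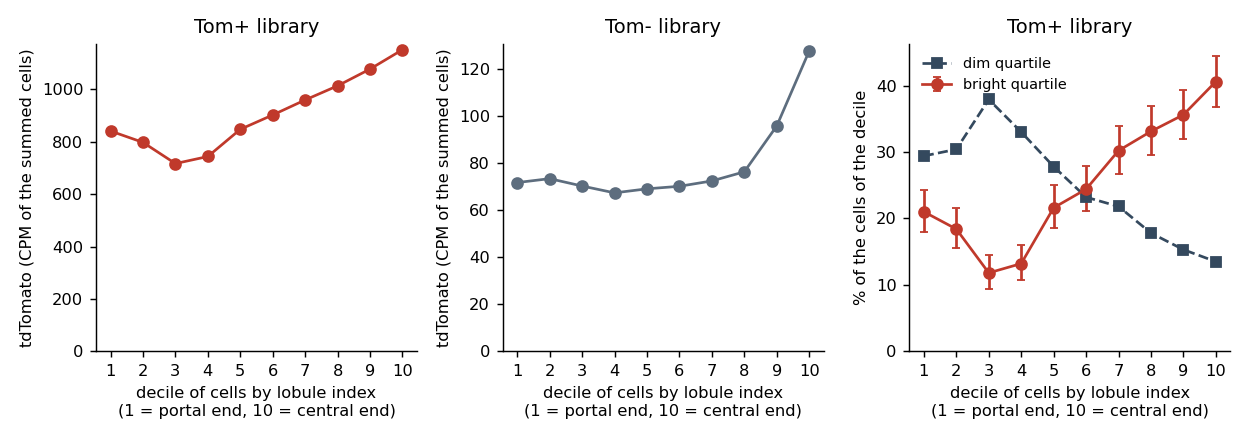
Reporter along the lobule, with hepatocytes of each library cut in deciles by lobule index (x axis, 1 at the portal and 10 at the central end). The y axes give tdTomato in CPM of the summed cells for Tom+ (left) and Tom- (middle, another scale), and the percentage of the Tom+ cells of each decile that were bright or dim (right, bars giving the exact 95% interval of the bright share for counting error). The bright share is lowest at 11.8% in the third decile and highest at 40.6% in the last.

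To compare bright and dim cells at like positions, quartiles were cut again within 10 bins of the lobule index. The pericentral sum then had a log2 ratio of 0.014 and the periportal sum one of -0.015, which follows from the construction, because these genes formed the index. Among the 7888 genes compared, 114 (1.45%) were higher and 84 (1.06%) lower. Of the 417 higher genes, 97 (23.3%) were still called higher, and of the 259 lower genes, 52 (20.1%) were still called lower. Within 5 bins of position crossed with 5 bins of depth, 83 of 7885 genes (1.05%) were higher and 116 (1.47%) lower, with 72 and 64 of them shared with the first comparison. An index from noisy single cells leaves some difference in position within a bin, and how much was not tested.

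**Figure D4:**
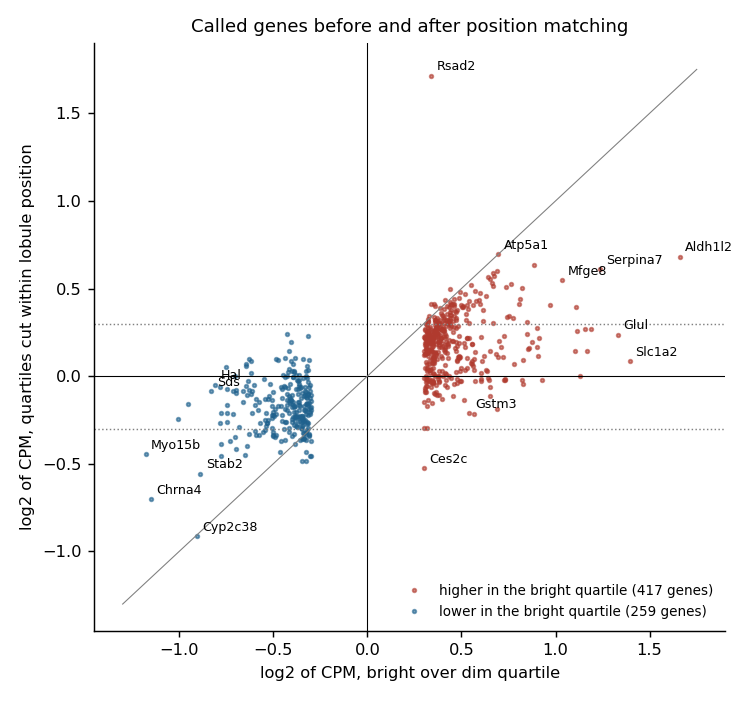
Each point is a gene called higher or lower in the bright quartile, with its log2 ratio over all cells on the x axis and its log2 ratio in quartiles cut within lobule position on the y axis. The diagonal marks equal values and the dotted lines the limit of 0.3. Dmbt1, at -7.84, lies outside the plotted range. Most points fall between the dotted lines, Glul at 0.24 among them, while Serpina7, Aldh1l2 and Atp5a1 stay above and Chrna4 and Cyp2c38 below.

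Of the genes with the largest ratios over all cells that did not form the index, Serpina7 and Mfge8 were still called higher under this matching. Aldh1l2, a mitochondrial enzyme of folate metabolism, had the largest, with 3.304, 5.557, 7.32 and 10.44 CPM over the quartiles and a log2 ratio of 1.66 (1.43 to 1.90). At like positions its ratio was 0.68, but its levels of 4.86 and 7.79 CPM were then below the 10 CPM minimum. Serpina7 (chrX:139079257-139085236), which encodes a thyroxine-binding globulin, stood at 167.7, 234.8, 293.6 and 395.8 CPM, a log2 ratio of 1.24, and of 0.61 within position and 0.64 within position and depth. Mfge8, a secreted protein that bridges dying cells to phagocytes, stood at 10.89, 11.78, 14.14 and 22.34 CPM, with ratios of 1.04, 0.55 and 0.59 in the same order. In the Tom- library, Serpina7 also had a ratio of 1.06, and Mfge8, at 9.58 CPM in the bright quartile of that library, was below the minimum with 0.23.

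The other genes of this group include 6 that formed the index, so that lower ratios at like positions follow in part from its construction. Slc1a2 had a log2 ratio of 0.086, Rhbg one of -0.0013 and Lgr5 one of 0.14, while Glul had 0.24 and Slc13a3 had 0.27. Oat, at 0.39, was still called higher, as was Slc13a3 with depth added, at 0.30. Among the other index genes, Igf1 (0.34) was called higher and Cyp2c50 (-0.36) lower at like positions. The remaining genes with the largest ratios were Adamtsl4 (1.17), Tenm3 (1.16), which encodes a teneurin, and Scara5 (1.11), a ferritin receptor. They stood at 4.58 to 19.09 CPM over all quartiles, and their ratios within position were 0.14, 0.27 and 0.26.

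Among the genes with the smallest ratios, 1 was carried by a single cell. Dmbt1 had a log2 ratio of -7.84, but 1057 of its 1068 UMIs in bright and dim cells (99.0%) lay in 1 dim cell, and without it the ratio was -0.59. The others were spread over many cells. Chrna4, a nicotinic receptor subunit, stood at 15.46, 10.25, 8.82 and 6.97 CPM, a log2 ratio of -1.15, and of -0.70 at like positions. Cyp2c38, a cytochrome P450, stood at 11.89, 9.14, 9.83 and 6.34 CPM, a ratio of -0.91 both over all cells and within position. In both comparisons Chrna4 and Cyp2c38 passed the level minimum through the dim cells alone, and so had to be lower. Myo15b, a myosin-like gene, went from 28.58 to 12.63 CPM (-1.18, then -0.45) and Orm3, an acute phase gene with close copies, from 16.53 to 9.64 CPM (-0.78, then -0.45).

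Aspg and Tsen54 were below the limit at like positions. Aspg, an asparaginase, went from 321.1 to 165.8 CPM, a log2 ratio of -0.95 over all cells and -0.16 within position. Tsen54, a subunit of the tRNA splicing endonuclease, went from 130.1 to 64.68 CPM (-1.01, then -0.24). The carboxylesterase Ces3b had -0.27 within position. With depth added, Tsen54 (-0.33) and Ces3b (-0.31) were called lower and Aspg (-0.24) was not. Sds, Hal and Sdsl, which break down amino acids, had -0.084, -0.049 and -0.063, which follows from the construction, because they formed the index. In the Tom- library, Myo15b, Chrna4, Tsen54, Aspg and Cyp2c38 all had ratios between -0.17 and -0.057. Chrna4 (8.99 CPM in dim and 8.64 CPM in bright cells) and Cyp2c38 (8.98 and 7.98 CPM) were below the 10 CPM minimum there.

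RNA of sinusoidal endothelial cells was lower in bright profiles. All 6 of the 14 endothelial markers that passed the level filter were lower, against 3.28% of all genes, with a median log2 ratio of -0.61, and the summed level of the whole list stood at 147.4, 115.8, 111.0 and 99.89 CPM. No marker of the list was at 0 in either quartile. Stab2, a scavenger receptor of sinusoidal cells, went from 18.08 to 9.78 CPM (-0.89), Mrc1 from 18.10 to 11.53 CPM (-0.65) and Clec4g from 16.47 to 10.17 CPM (-0.70). Stab2 passed the 10 CPM minimum through the dim quartile alone and so had to be lower, whereas Mrc1 and Clec4g passed it in both quartiles. At like positions, where 1.06% of all genes were lower, 4 of the 6 stayed lower, with Stab2 at -0.56. Among cells with no UMI of Ptprc, Pecam1 or Dcn, Stab2 had -0.70. In the Tom- library, where 0.587% of all genes were lower, none of the 9 endothelial markers that passed the filter differed by the limit, and their median was -0.025.

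Markers of other cell types differed in fewer genes. Of the 6 macrophage and immune markers that passed, Clec4f (-0.39) and Marco (-0.59), which mark Kupffer cells, were lower and Cd74, which takes part in antigen presentation, was higher (0.33), beside 3.28% of all genes lower and 5.27% higher, while C1qb was at 57.63 and 57.66 CPM. The whole list summed to 280.1 CPM in the dim and 265.3 CPM in the bright quartile, and no marker of it was at 0. The stellate and fibroblast list summed to 61.35 and 69.23 CPM and the cholangiocyte list to 992.3 and 998.4 CPM, with none of the 3 markers that passed in either list reaching the limit. The part of other cells' RNA in the differences above was not tested.

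Some genes of amino acid catabolism and of fatty acid synthesis were lower in bright cells. Of 18 genes of the urea cycle and amino acid catabolism, 9 were lower, against 3.28% of all genes, and 0 higher, with a median of -0.26, and 7 of the 9 also stood in the periportal list. The other two were Tat, tyrosine aminotransferase (3733 to 2934 CPM, -0.35), and Got1, an aspartate aminotransferase (302.2 to 226.2 CPM, -0.42). Of 11 fatty acid synthesis genes, 5 were lower and 0 higher. They were Scd1, a fatty acid desaturase (2296 to 1526 CPM, -0.59), Acly, which makes cytosolic acetyl-CoA (-0.52), both acetyl-CoA carboxylases, Acaca (-0.39) and Acacb (-0.50), and Thrsp (-0.45). Fasn, the fatty acid synthase itself, was at 510.1 and 451.2 CPM (-0.18). At like positions, where 1.45% of all genes were higher and 1.06% lower, 0 genes of either list were called.

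Few fatty acid oxidation, bile acid and sterol genes reached the limit, beside 5.27% of all genes higher and 3.28% lower. Of 15 fatty acid oxidation genes, Pdk4 (17.61 to 31.64 CPM, 0.85), a kinase that turns off pyruvate dehydrogenase, and Acot1 (0.36) were higher. Of 14 bile acid genes, Cyp7a1 and the uptake carrier Slco1b2 (1827 to 2320 CPM, 0.34) were higher. None of 20 cholesterol synthesis genes reached the limit. Of 12 general hepatocyte genes, 1 reached it, Apoa1 at 3211 and 4155 CPM (0.37). At like positions, where 1.45% of all genes were higher and 1.06% lower, no gene of these lists was called, and Slco1b2 had the opposite sign.

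Several detoxifying enzymes were higher in bright cells. Of 15 genes of the NRF2 and glutathione list that passed, 6 were higher, against 5.27% of all genes, and 0 lower. They were the glutathione transferases Gsta3 (2059 to 2885 CPM, 0.49), Gstm1 (336.9 to 482.9 CPM, 0.52), Gstm2 (0.32) and Gstm3 (280.8 to 408.9 CPM, 0.54), the exporter Abcc4 (0.65) and the epoxide hydrolase Ephx1 (0.31). The best known NRF2 targets were near 0 or below the limit, with Nqo1 at 0.22, Gclm at 0.095, Gclc at -0.076 and Txnrd1 at 0.052. At like positions, with the same shares of all genes called, none of the 15 was called, and Gstm2 and Gstm3 had ratios of -0.30 and -0.21. Glutathione transferases of one class are close copies, and probes may be shared between them.

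Of 13 genes that the study followed by quantitative PCR, 8 passed the filter, and 6 were higher and 1 lower in the bright quartile, beside 5.27% and 3.28% of all genes. The study identified several of them in its single-cell data before the PCR and does not state how the others were chosen. Their direction is therefore not taken as independent evidence. In the Tom- library ranked by the same rule, 5 of the 7 that passed were higher and 0 lower, beside 13.8% and 0.587% of all genes. Their median log2 ratio was 0.54 there and 0.53 in the Tom+ library. In the Tom+ library Anxa2 passed the minimum through the bright quartile alone, and so had to be higher. Cd63, a protein of exosome membranes, stood at 50.60, 63.02, 76.09 and 99.32 CPM, a log2 ratio of 0.97, and kept 0.40 at like positions. Cdkn1c, the CDK inhibitor p57, stood at 40.66, 51.63, 56.90 and 72.00 CPM (0.82, then 0.092), and Anxa2, an annexin, at 6.15, 8.18, 10.31 and 11.58 CPM (0.91, then 0.22 at levels below the minimum). Txnip, an inhibitor of thioredoxin, was lower, with 270.0, 266.4, 240.2 and 218.3 CPM (-0.31, then -0.45).

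Over all cells, genes of senescence and cell cycle arrest reached the limit in both directions. Of 4 CDK inhibitors that passed, 1 was higher, Cdkn1c (0.82), and 1 lower, Cdkn1a, beside 5.27% and 3.28% of all genes. Cdkn2a, the gene of p16Ink4a itself, had 10, 6, 11 and 12 UMIs in the 4 quartiles, and the separate p16 entry of the probe set had 33, 29, 34 and 17. A difference was not detectable at this depth for either, since the interval of the log2 ratio ran from -0.86 to 1.85 for Cdkn2a and from -1.68 to 0.15 for the p16 entry (-0.74). Cdkn1a, the CDK inhibitor p21, was lower in bright cells at 94.80, 86.64, 80.14 and 76.86 CPM (-0.30), and Cdkn1b and Cdkn2c had ratios of 0.066 and 0.15. Of 15 p53 targets, only Ddit4 reached the limit (125.4 to 97.47 CPM, -0.36), while Mdm2 was at 102.0 and 113.3 CPM. Of 6 secreted factors of the senescent phenotype that passed, only Pdgfa was higher (14.18 to 18.00 CPM, 0.34), and Gdf15 was at 687.9 and 629.5 CPM (-0.13). At like positions, where 1.45% of all genes were higher and 1.06% lower, none of the CDK inhibitors or p53 targets was called. There Cdkn1c had a ratio of 0.092 and Cdkn1a one of -0.20. In quartiles cut within depth, Cdkn1a had -0.26. Pdgfa had the opposite sign at like positions, and 1 other secreted factor was called higher.

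The study followed the LIF receptor on hepatic stellate cells, with Tom+ against Tom- hepatocytes as the source of its ligands. Between bright and dim Tom+ hepatocytes, which is another contrast in another cell type, the receptor did not differ by the limit. Lifr was at 1104, 1049, 1017 and 965.8 CPM (-0.19), and its partner Il6st at 100.3, 101.9, 103.0 and 107.4 CPM (0.10). The ligand Lif had 12 and 14 UMIs in the dim and bright quartiles, and Ctf1, a ligand of the same receptor family, was at 7.62 and 8.68 CPM, below the minimum. A difference in these ligands was thus not assessed. Over all cells, clock genes were close to level, with a median of -0.0099 over 9 genes of the repressor phase (Dbp 0.13, Per1 -0.17, Per2 -0.0039). None was past the limit, beside 5.27% of all genes higher and 3.28% lower. At like positions 1 of the 9 was lower, beside 1.06% of all genes, and their median was -0.12. Dbp and Per2 had the opposite sign there. The LINE-1 entry L1Md_A was at 3545, 3562, 3484 and 3468 CPM (-0.031).

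Stress lists were mixed, and their counts stand beside 5.27% of all genes higher and 3.28% lower, or 1.45% and 1.06% at like positions. Of 12 immediate early genes, Fos (9.61 to 17.30 CPM, 0.85), Egr1 (65.19 to 102.5 CPM, 0.65) and Klf6 (0.47) were higher, and at like positions Fos alone stayed above the limit at 0.31. Of 10 heat shock genes, Hspb1 (10.62 to 19.86 CPM, 0.90), Hspa1b (0.49), Hsph1 (0.48) and Hspe1 (0.39) were higher, and none was called at like positions. With depth added to position, 1 was higher, Hspb1 at 0.41. Of 18 genes of the unfolded protein response, Herpud1 (671.8 to 524.8 CPM, -0.36) and Chac1 (-0.53) were lower. Of 19 acute phase genes, Saa3 was higher (0.56) and Orm3 lower. Of 10 genes under growth hormone or sex control, Mup20 was higher (0.31) and Mup3 and Cyp2b9 were lower (both -0.42). Of 7 injury genes, Anxa2 and Cyr61 (0.31) were higher and Ctgf was lower (-0.61). Of 2 cycling genes that passed, Ccnd1, cyclin D1, was higher (39.82 to 55.38 CPM, 0.48), and the larger part of that list, with the mitotic genes, was below the minimum. At like positions no gene of the unfolded protein response, injury or cycling lists was called. The acute phase list and the growth hormone and sex list each had 1 higher and 1 lower gene there.

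Some interferon-response genes were higher in bright cells, 5 over all cells and 3 at like positions, with Rsad2 and Isg15 in both. Of 12 genes that passed, 5 were higher (Rsad2 0.34, Isg15 0.34, Irf1 0.36, Ifi47 0.54 and Igtp 0.32), against 5.27% of all genes, and 0 lower, with a median of 0.19. At like positions, where 1.45% of all genes were higher, 3 were higher, Rsad2, Isg15 and Ifit3, the last at 0.65 against -0.16 over all cells. Ifit3 was at 9.3 CPM in dim and 14.55 CPM in bright cells there. Both Ifit3 and Rsad2 passed the 10 CPM minimum at like positions through the bright group alone, and so had to be higher. Of 11 that passed in the Tom- library, 2 were higher, beside 13.8% of all genes, and 2 lower, beside 0.587%. Isg15, a ubiquitin-like protein, stood at 42.73, 45.55, 53.64 and 54.11 CPM and kept a ratio of 0.41 at like positions. Rsad2 (chr12:26442746-26456452), the antiviral protein viperin, stood at 11.52, 9.80, 17.59 and 14.58 CPM, in no order. It had UMIs in 285 bright and dim cells, and 1 dim cell held 436 of them (28.6%). Without that cell the ratio was 1.65 in place of 0.34, and it was 1.71 in quartiles cut within position and 1.92 in those cut within depth. Leaving out the cells at or below the Tom- 95th percentile gave 0.13, below the limit. Leaving out the clock-rich cells, the 20% with the highest summed share of genes of the circadian repressor phase, turned the sign, at -0.40. At like positions Rsad2 was at 7.55 CPM in dim and 24.76 CPM in bright cells, so the levels of both groups moved. Single cells were left out of the quartiles over all cells only.

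Of 17 respiratory chain genes, 3 were higher, against 5.27% of all genes, and 0 lower. Atp5a1 (33.54, 40.66, 46.20 and 54.31 CPM, 0.70), Ndufv1 (142.7 to 191.2 CPM, 0.42) and Cox4i1 (73.28 to 102.8 CPM, 0.49), which encode subunits of ATP synthase, complex I and cytochrome oxidase, were the higher ones, and the median of all 17 was 0.025. The same 3 were higher at like positions (0.70, 0.40 and 0.45, beside 1.45% of all genes) and in the Tom- library (0.91, 0.60 and 0.67, beside 13.8%). In the shallowest over the deepest quartile of Tom+ hepatocytes by total UMIs, Atp5a1 was higher (0.58), and Ndufv1 (0.20) and Cox4i1 (0.23) were below the limit. Within bins of position and depth together, Atp5a1 had a ratio of 0.57. The part of depth in these differences was not tested further.

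**Figure D5:**
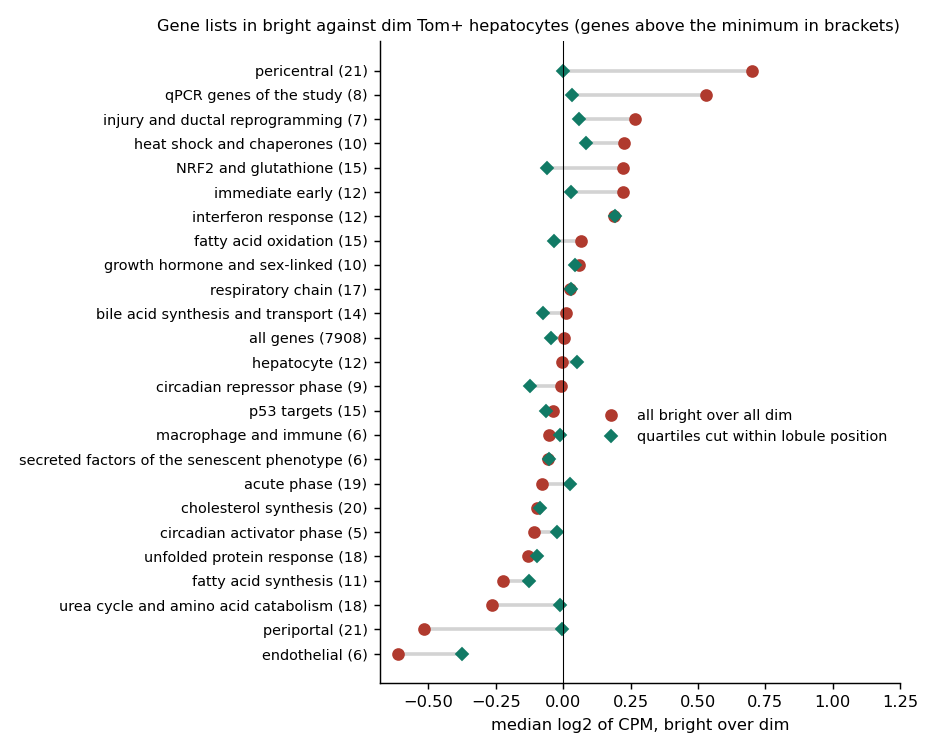
Median log2 ratio of CPM in bright over dim Tom+ hepatocytes (x axis) for each gene list with at least 5 genes above the minimum level (y axis, number of genes in brackets), over all cells (circles) and with quartiles cut within lobule position (diamonds). The pericentral and periportal medians move from 0.70 and -0.52 to about 0, as the index is built from them, and the endothelial median stays lowest at -0.38.

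Of 4 neighbours of the reporter at the Rosa26 locus, 2 passed the level filter, and neither was higher with it. Setd5 (chr6:113077365-113153435), next to that locus, was lower in bright cells, at 144.8, 129.6, 120.5 and 115.8 CPM, which gave a log2 ratio of -0.32 (-0.37 to -0.28) over all cells and -0.31 at like positions. In the Tom- library its ratio was -0.029. Thumpd3, on the other side of the locus, was at 11.05, 10.92, 10.14 and 9.97 CPM (-0.15).

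Ranking the Tom- hepatocytes by the same rule gave the background of such a comparison in cells with little reporter. Of 7841 genes, 1079 (13.8%) were higher and 46 (0.587%) lower in the brightest quartile of that library, and 294 of the 417 higher genes of the Tom+ library were among the 1079. That is 78.4% of the 375 that were above the minimum in Tom- cells, beside 13.8% of all genes, and 27.2% of the 1079. Of the 259 lower genes, 20 were lower in Tom- cells, which is 7.87% of the 254 above the minimum there, beside 0.587% of all genes, and 43.5% of the 46.

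Of the pericentral markers, 17 of 21 were higher in each library, beside 5.27% of all genes in Tom+ and 13.8% in Tom- cells. Their medians were 0.70 (Tom+) and 0.67 (Tom-), and Glul was at 23.86 and 76.32 CPM in the dim and bright Tom- quartiles (1.68). Of the periportal markers, 18 of 21 were lower in Tom+ cells, beside 3.28% of all genes, and 6 of 21 in Tom- cells, beside 0.587%. In Tom- cells 1 periportal marker was higher, and Sds was at 1525 and 1276 CPM (-0.26). The brightest Tom- quartile was shallower as well, with a median of 28936 UMIs against 36759, and a Tom- cell in it had a median of 5 tdTomato UMIs, so the ranking of Tom- cells rests on few counts. The shallowest over the deepest Tom+ hepatocytes gave 461 higher (5.8%) and 9 lower (0.113%) genes, and 121 of the 417 were among the 461. In quartiles cut within depth alone, 302 genes (3.82%) were higher and 280 (3.54%) lower in bright Tom+ cells. The same cut left 545 higher (6.99%) and 22 lower (0.282%) of 7800 genes in Tom- cells, and bins of position and depth together left 371 (4.76%) and 6 (0.077%) of 7791. In those Tom- bins, Glul (0.75), Slc1a2 (0.59), Lgr5 (0.57), Slc13a3 (0.54) and Oat (0.37) were still called higher, though they formed the index. Other index genes, such as Axin2 (0.24) and Cyp2e1 (0.093), were not. Without Tom- cells above the end of the Tom+ dim quartile, 1068 genes (13.6%) were higher and 44 (0.561%) lower.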

How the data were processed

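Fixed liver cells were profiled with probe-based single-cell RNA-seq (10x Flex, mouse probe set with 3 added tdTomato probe pairs). The authors deposited raw UMI counts per barcode and gene, made with Cell Ranger 7.2.0 on mm10 (submitters' processing notes). The barcodes were already filtered as cells, and both deposited count matrices held 19073 features. Because probes differ in efficiency, levels were not compared between genes.

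Counts were summed over the cells of each quartile and scaled to CPM, and ratios carry exact conditional intervals. With 1 library per group, no test was made and p-values are absent. Genes needed 10 CPM in either sum and 20 UMIs in both. Named genes were the 12 largest and 12 smallest ratios, every list gene described, Cdkn2a, the p16 and LINE-1 entries and tdTomato. The lists and the cells were chosen with earlier results of these data known. Some list genes entered the counts but are not reported here singly. The calls were tested on simulated data that held counting error only, without differences between cells. Scrublet (scanpy 1.11.5) marked 7 of 6520 Tom+ hepatocytes, too few to have worked, and the median score was 0.1057 in both quartiles. No doublets were removed in the main comparison. Coordinates come from GENCODE M21 (GRCm38), in which 19054 features matched.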

Additional observations from a re-analysis of the deposited data

Results flagged for a closer look

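Rsad2 was higher in bright than in dim Tom+ hepatocytes, with a log2 ratio of 0.34, and lower in the brightest than in the dimmest Tom- hepatocytes, with one of -0.81. The 2 libraries thus lay on opposite sides of the limit. The difference between the libraries was not tested. The Tom+ ratio was 0.13 without cells in the Tom- range and -0.40 without clock-rich cells. In the Tom+ library 1 dim cell held 28.6% of the UMIs of bright and dim cells.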

How the results depend on the processing

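No paired analysis was possible because there was only 1 library of each kind. Each alternative below changes the 417 higher and 259 lower genes, the pericentral log2 ratio of 0.62 or the periportal one of -0.46, and neither ratio changed sign under any of them. With 1 library per group, no replicate could be left out. Position-matched quartiles gave 114 and 84 genes and log2 ratios of 0.014 and -0.015. Bins of position and depth together, chosen after seeing the data, gave 83 and 116 genes, 0.049 and -0.038. Depth-matched quartiles gave 0.60 and -0.42, and the top against the bottom decile 954 and 487 genes, 0.91 and -0.67. Ranking by tdTomato UMIs gave 188 higher genes, 0.53 and -0.36, and the UMI limit of the study 762 higher genes, 0.68 and -0.50. Cells without UMIs of Ptprc, Pecam1 or Dcn gave 0.59 and -0.44, leaving out cells in the Tom- range 0.57 and -0.43, leaving out clock-rich cells 0.56 and -0.43, and leaving out the highest doublet scores 0.64 and -0.48. The periportal ratio was -0.45 in thinned cells and -0.46 as a mean over cells. A minimum of 50 CPM left 175 and 120 genes, no minimum 1066 and 1376, and a 2-fold limit 12 and 4. In the Tom- library, matching depth changed 1079 and 46 genes to 545 and 22, and position with depth to 371 and 6. Apart from limits and minimums, which change what can be called, and the position index, which is built from the markers, the cause was not tested.

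Of 72 genes recomputed under the alternatives, 16 past the limit and 8 below it changed sign. Among the other genes past the limit that the text describes, 9 had the opposite sign in position-matched quartiles: Abcc4, Ces2c, Cyr61, Ephx1, Got1, Gstm2, Mup3, Pdgfa and Slco1b2. For the 16, the values follow. Position-matched quartiles gave a log2 ratio of -0.0013 for Rhbg, -0.019 for Axin2, -0.11 for Tbx3, -0.026 for Cyp2e1, -0.0225 for Cyp1a2, -0.0223 for Gulo, -0.11 for Ahr, -0.21 for Gstm3, 0.020 for Cyp2f2, 0.087 for Gls2, 0.10 for Arg1, 0.099 for Aldh1b1, 0.070 for Etnppl, 0.071 for Cdh1 and 0.23 for Hsd17b6. With depth added they were -0.047 for Tbx3, -0.12 for Ahr, -0.19 for Gstm3, 0.10 for Cyp2f2, 0.035 for Gls2, 0.054 for Arg1, 0.18 for Aldh1b1, 0.0385 for Etnppl, 0.11 for Cdh1 and 0.33 for Hsd17b6, which was 0.038 when ranked by tdTomato UMIs and -0.15 in depth-matched quartiles. Rsad2 was -0.40 without clock-rich cells and between 0.13 and 1.92 elsewhere.

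Depth limits Cdkn2a, the p16 entry and Lif, which had under 40 UMIs in a quartile.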

Other observations

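Genes that stood out within bins of position and depth together were named after their values were seen. Besides Serpina7 and Mfge8, the higher ones were Rsad2 (log2 ratio 1.89), Cmpk2 (1.00), a nucleotide kinase next to Rsad2 on chromosome 12, Obp2a (0.64) and Ifit3 (0.60), an interferon-induced gene. For 3 of these, 1 dim cell held a large part of the UMIs of bright and dim cells: 436 UMIs (28.6%) of Rsad2, 196 (18.0%) of Cmpk2 and 212 (16.4%) of Ifit3. Without that cell the ratios over all cells moved from 0.34 to 1.65, from 0.03 to 0.62 and from -0.16 to 0.33. In quartiles cut within depth alone they were 1.92, 0.94 and 0.65, with no cell left out. At like positions the bright levels of the 3 genes were 24.76, 13.3 and 14.55 CPM, against 14.58, 9.38 and 10.31 CPM over all cells. Their dim levels at like positions were 7.55, 6.78 and 9.3 CPM. Each thus passed the 10 CPM minimum there through the bright group alone, and had to be higher. In the Tom- library the same genes had ratios of -0.81, -0.41 and -0.38. Obp2a had the opposite sign over all Tom+ cells (-0.19) and in the Tom- library (-0.45).

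Further genes higher within these bins were Atp5a1 (0.57), Cox6c (0.55), a subunit of cytochrome oxidase, Hmgn1 (0.55), a nucleosome-binding protein, Hnrnpa0 (0.50), an RNA-binding protein, Comtd1 (0.49) and Fkbp1a (0.49). These 6 were also higher in the Tom- library, by 0.58 to 1.13, and in the shallowest over the deepest Tom+ hepatocytes, by 0.31 to 0.58. Over all 83 genes higher in these bins, 53 were higher in the Tom- library cut the same way, where 4.76% of all genes were, and 37 were higher in the shallow over deep comparison, where 5.8% were.

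The lower genes in these bins were Snhg11 (-1.02), a non-coding RNA, Cyp2c38 (-1.005), Chrna4 (-0.73), Stab2 (-0.65), Orm3 (-0.51), Mrc1 (-0.51), Ppp1r9a (-0.50), Clec4g (-0.49), the carboxylesterase genes Ces1b (-0.47) and Ces2c (-0.44), Myo15b (-0.47) and Olfml1 (-0.45). Snhg11 was below the 10 CPM minimum over all cells (8.22 CPM in dim and 6.53 CPM in bright cells) and at like positions (9.23 and 5.14 CPM). It thus passed here through the dim group alone, and had to be lower. At like positions Cyp2c38 was at 12.27 CPM in dim and 6.52 CPM in bright cells, and Chrna4 at 14.0 and 8.61 CPM. These 2 genes also passed there through the dim group alone, and had to be lower. Stab2, Mrc1 and Clec4g are endothelial markers. Of the 116 lower genes, 0 were lower in the Tom- library cut the same way, in which 6 of 7791 genes were lower in all. Ces2c changed sides, being at 31.90, 34.63, 35.31 and 39.27 CPM over the quartiles of all Tom+ cells (0.30). Carboxylesterase genes are close copies, and probes may be shared between them.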
